A study of Homo sapiens with 6 samples.

Results

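The P4-ATPases are the lipid flippases of the ATP8 to ATP11 families. The 9 genes described here, ATP8A1, ATP8B1, ATP8B2, ATP9A, ATP9B, ATP10A, ATP10D, ATP11A and ATP11B, were taken by symbol from a table of 35238 genes counted in HAP1 cells. All 9 passed the expression filter, which left 16954 genes for testing. ATP8A2, ATP8B3, ATP8B4 and ATP10B, P4-ATPases that were not members, are given for comparison.

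HAP1 is an established, near-haploid human line of adherent cells that derives from a chronic myeloid leukaemia line. Untreated wildtype HAP1 cells (3 libraries) were compared with untreated HAP1 cells carrying a DEGS1 knockout (3 libraries), to find what the loss of DEGS1 does to the cells. DEGS1 encodes the desaturase that turns dihydroceramide into ceramide, the lipid from which glucosylceramide and sphingomyelin are built. Cells of both genotypes were kept in 5% serum, and RNA was taken 24 h after they had been passaged. The labels do not say how many knockout clones were used or whether replicates were separate cultures, so the p-values rest on the spread among these 6 libraries alone, and that spread may be technical. The library names carry a code that each wildtype library shares with the knockout library of the same replicate number, and the labels do not say what it marks.

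P4-ATPases use ATP to move lipids from the outer or lumenal leaflet of a membrane to its cytosolic leaflet. They hold phosphatidylserine and phosphatidylethanolamine on the inner face of the plasma membrane, and some carry phosphatidylcholine or glucosylceramide instead. Most must pair with the small subunit CDC50A, encoded by TMEM30A, to leave the endoplasmic reticulum, whereas ATP9A and ATP9B do so without it.

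Total counts ran from 17322756 to 28988522 per library. DEGS1 stood between 95.5 and 123 CPM in wildtype and between 6.88 and 10.4 CPM in the knockout, where CPM is the usual depth-normalised count unit, here after scaling by trimmed means of M values. Wildtype replicate 2 stood apart from the other wildtype libraries: set against theirs, its counts gave chi-square values of 31.2 and 48.2 per degree of freedom, and replicates 1 and 3 gave 11.7. Against knockout replicates 1, 2 and 3 it gave 43.4, 19.6 and 23.1, and of these only replicate 2 carries the same code. The wildtype and knockout libraries that share a code as replicates 1 and 3 gave 34.5 and 47.7. Over all genes, leaving out wildtype replicate 2 raised the number of changed genes from 756 to 3825. It held the lowest wildtype value of 7 of the 9 flippases and the highest of the other 2, so each member is given with and without it. Of 9 blood cell markers, SPI1, MPO and HBG1 had no count in any library, where a count of 0 allows up to 0.109 to 0.161 CPM. The summed level of these 9 markers was 11.677 to 13.996 CPM in wildtype and 7.836 to 9.1 CPM in the knockout, and that of 7 fibroblast markers was 8.24 to 13.2 and 9.67 to 12.7 CPM. The sum of 7 epithelial markers was 75.2 to 79.2 CPM in wildtype and 70.7 to 106 CPM in the knockout. Within these lists KIT, a receptor of blood progenitors, fell from 8.09 to 4.03 CPM (adjusted p = 0.023 by edgeR). Of the 4 blood cell markers tested, 2 had positive and 2 negative log2 fold changes. CD34 went from 1.13 to 1.73 CPM and was not called (adjusted p = 0.427 by edgeR). Of the epithelial markers, whose sum was mostly the keratin KRT18, the adhesion protein gene EPCAM fell from 2.16 to 0.275 CPM (adjusted p = 0.00233 by edgeR) and the splicing factor gene ESRP1 from 5.60 to 1.95 CPM (adjusted p = 0.0241 by edgeR). KRT18 went the other way, from 51.1 to 70.8 CPM without overlap, and was not called (adjusted p = 0.0794 by edgeR). Of the 6 epithelial markers tested, 3 had positive and 3 negative log2 fold changes. The calls of KIT and ESRP1 were each lost in 4 of 18 other settings, and that of EPCAM in none of the 18. The part of these marker differences in the results below was not tested.

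Of the 9 flippases, ATP9A rose and ATP10A, ATP10D and ATP11A fell in the DEGS1 knockout, while 5 did not pass. A gene was called where the quasi-likelihood test of edgeR, adjusted by Benjamini-Hochberg over all 16954 genes, gave a p under 0.05. Of those genes 4.46% were called, 1.51% higher and 2.95% lower. The 9 members had 2 positive and 7 negative log2 fold changes with a median of -0.50, against a median of -0.02 over all tested genes. The median size of their change, regardless of sign, was 0.74 on the log2 scale, against 0.19 over all tested genes. The unadjusted p was under 0.05 for 7 of the 9, and for 16.5% of all tested genes. Wildtype and knockout libraries did not overlap in 6 of the 9, 1 with the knockout above and 5 with it below. Over all tested genes the groups did not overlap in 20.8%, 9.24% with the knockout above and 11.6% with it below. Without wildtype replicate 2, 7 members were called, 1 higher and 6 lower, and 22.1% of 17305 tested genes were, 10.6% higher and 11.5% lower. DESeq2 called 5 members and 5.89% of all genes, limma voom 4 and 4.03%, and edgeR with a block on replicate number 4 and 6.38%.

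**Figure D1:**
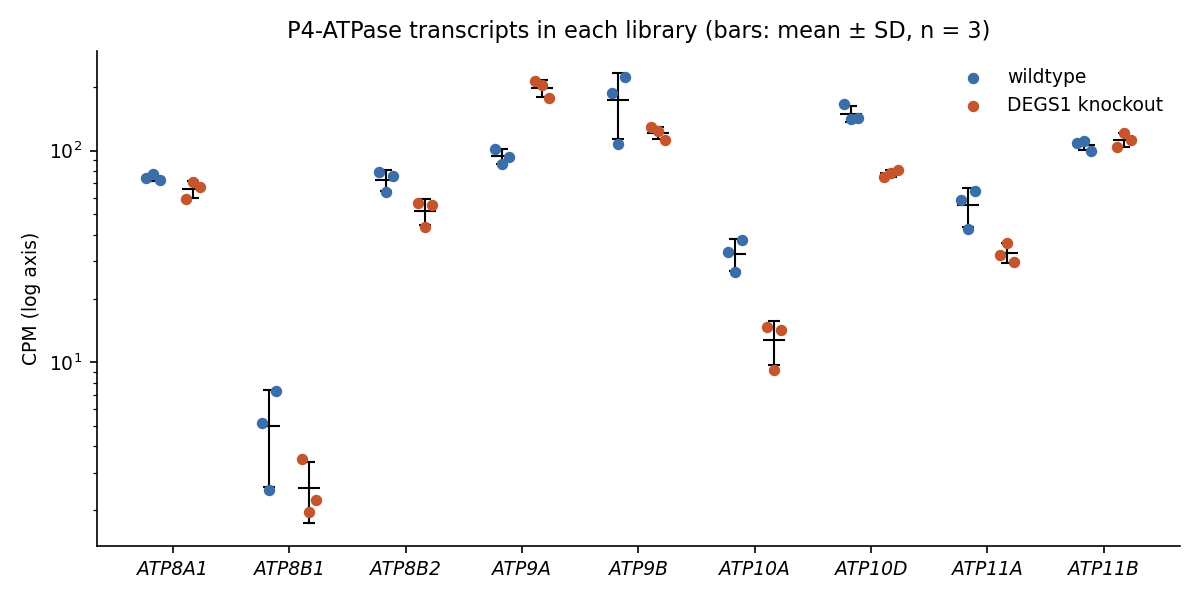
CPM on a log axis for each of the 9 P4-ATPases, with 1 point per library (blue wildtype, orange DEGS1 knockout) and bars for the mean and SD of 3 libraries. The knockout points of ATP9A lie above its wildtype points, those of ATP10A, ATP10D and ATP11A lie below theirs, and ATP9B has a wide wildtype range of 107 to 224 CPM.

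The ATP9 pair acts inside the cell. ATP9A is found on endosomes, where it works with the sorting factors SNX3, MON2 and DOP1B. It stood at 102, 86.8 and 93.6 CPM in wildtype replicates 1, 2 and 3 and at 213, 204 and 177 CPM in the corresponding knockout replicates. The lowest knockout library was thus well above the highest wildtype library. The mean rose from 94.1 ± 7.48 to 198 ± 18.4 CPM (SD, n = 3 each), 2.10-fold, with a log2 fold change of 1.07 (SE 0.12, adjusted p = 0.000325 by edgeR). It was called under each of 18 other settings, with log2 fold changes of 1.00 to 1.18, and stood at 1.02 without wildtype replicate 2 (adjusted p = 3.88e-05 by edgeR).

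ATP9B, the closest relative of ATP9A, is a protein of the trans-Golgi network. It stood at 188, 107 and 224 CPM in wildtype replicates 1, 2 and 3 and at 129, 124 and 113 CPM in the knockout. Wildtype replicate 2 was below all knockout libraries and the other wildtype libraries were above them, so the groups overlapped. The log2 fold change was -0.50 (SE 0.23, adjusted p = 0.303 by edgeR) with all libraries and -0.75 without wildtype replicate 2 (adjusted p = 0.00034 by edgeR), but -0.28 without wildtype replicate 3 (adjusted p = 0.742 by edgeR). The ratio of ATP9A to ATP9B, each per length of transcript, was 0.291, 0.435 and 0.225 in wildtype and 0.887, 0.887 and 0.844 in the knockout. The ratio was above its highest wildtype value in each knockout library. Its size depends on the transcript lengths used, and the direction of its difference between genotypes does not. With the union of annotated exons as length, ATP9A had place 1 among the 9 in the knockout and ATP9B place 4.

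The ATP10 subfamily held the decreases of ATP10A and ATP10D. ATP10A carries phosphatidylcholine and glucosylceramide at the plasma membrane. It stood at 33.2, 26.6 and 37.7 CPM in wildtype and at 14.7, 9.21 and 14.2 CPM in the knockout, without overlap. The mean fell from 32.5 ± 5.56 to 12.7 ± 3.03 CPM (SD, n = 3 each), which is 2.56-fold lower, with a log2 fold change of -1.36 (SE 0.19, adjusted p = 0.00137 by edgeR). This was the lowest log2 fold change among the 9 members.

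ATP10D carries glucosylceramide across the plasma membrane. It stood at 166, 142 and 143 CPM in wildtype and at 75.2, 78.4 and 81.1 CPM in the knockout. The knockout libraries lay close together and well below the wildtype range. The mean fell from 150 ± 13.6 to 78.2 ± 2.99 CPM (SD, n = 3 each), 1.92-fold, with a log2 fold change of -0.94 (SE 0.11, adjusted p = 0.000454 by edgeR). ATP10A and ATP10D were called under each of 18 other settings, with log2 fold changes of -1.48 to -1.16 and -0.996 to -0.860. Without wildtype replicate 2 they stood at -1.48 (adjusted p = 0.000467 by edgeR) and -0.97 (adjusted p = 2.25e-05 by edgeR). ATP10B, the other gene of this subfamily, was not called (-0.28, SE 0.23, adjusted p = 0.603 by edgeR), but was lower without wildtype replicate 2 (-0.53, adjusted p = 0.0137 by edgeR) and stood at -0.08 without wildtype replicate 3 (adjusted p = 0.979 by edgeR).

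The ATP11 genes encode flippases of phosphatidylserine and phosphatidylethanolamine. ATP11A, at the plasma membrane, stood at 58.4, 42.5 and 64.6 CPM in wildtype and at 32.3, 36.7 and 29.7 CPM in the knockout. The groups did not overlap, with wildtype replicate 2 nearest to the knockout. The mean fell from 55.2 ± 11.4 to 32.9 ± 3.56 CPM (SD, n = 3 each), 1.68-fold, with a log2 fold change of -0.74 (SE 0.15, adjusted p = 0.0167 by edgeR). The call was lost without knockout replicate 1 (adjusted p = 0.0726 by edgeR), without knockout replicate 3 (0.112), with scaling by library size only (0.0515), with a block on replicate number (0.0523), with chromosome medians removed (0.241) and at a threshold of 0.01. Without wildtype replicate 2 the log2 fold change was -0.90 (adjusted p = 0.000131 by edgeR).

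ATP11B, a phosphatidylserine flippase of endosomes, stood at 109, 112 and 100.002 CPM in wildtype and at 104, 122 and 112 CPM in the knockout. The groups overlapped. Its log2 fold change was 0.08 with a 95% interval of -0.17 to 0.32 (adjusted p = 0.776 by edgeR), so changes within that interval are not excluded. Without wildtype replicate 2 the log2 fold change was 0.11 (adjusted p = 0.405 by edgeR). The ratio of ATP11B to ATP11A per length was 1.87 to 3.18 in wildtype and 3.89 to 4.58 in the knockout.

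The members of the ATP8 families did not pass with all libraries. ATP8A1, an aminophospholipid flippase of recycling endosomes and the Golgi, stood at 74.3, 78.0 and 72.5 CPM in wildtype and at 59.4, 70.9 and 67.4 CPM in the knockout. The knockout values were all below the wildtype values but by little, with a log2 fold change of -0.18 (95% interval -0.42 to 0.05, adjusted p = 0.426 by edgeR). Without wildtype replicate 2 the log2 fold change of ATP8A1 was -0.15 (adjusted p = 0.275 by edgeR). ATP8B2, a phosphatidylcholine flippase of the plasma membrane, stood at 79.4, 63.5 and 75.9 CPM in wildtype and at 56.5, 43.5 and 55.3 CPM in the knockout. The groups did not overlap, and the log2 fold change of -0.50 (SE 0.13) just missed the threshold (adjusted p = 0.0583 by edgeR). It was called in 4 of 18 other settings, such as the DESeq2 Wald test (DESeq2 adjusted p = 0.0295), the fit with a block on replicate number (adjusted p = 0.0083 by edgeR) and the fit without wildtype replicate 2 (adjusted p = 0.00408 by edgeR).

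ATP8B1 carries phosphatidylcholine and is the gene mutated in a familial form of cholestasis. It had the lowest level per length of the 9 and stood at 5.15, 2.49 and 7.28 CPM in wildtype and at 3.49, 1.95 and 2.22 CPM in the knockout, from 51 to 136 counts per library. The groups overlapped through wildtype replicate 2, which was below 1 knockout library. The log2 fold change was -0.96 with a 95% interval of -1.77 to -0.15 (adjusted p = 0.21 by edgeR), -1.29 without wildtype replicate 2 (adjusted p = 0.00636 by edgeR) and -0.59 without wildtype replicate 3 (adjusted p = 0.617 by edgeR). Of the ATP8 genes outside the 9, ATP8A2 fell from 9.95 ± 1.88 to 5.50 ± 1.14 CPM (SD, n = 3 each; log2 fold change -0.85, SE 0.22, adjusted p = 0.0487 by edgeR). Its call was lost in 12 of 18 other settings, with the largest adjusted p of 0.254 when chromosome medians were removed. ATP8B3 and ATP8B4 were under 5 CPM on average in both genotypes and not called (adjusted p = 0.885 and 0.92 by edgeR).

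**Figure D2:**
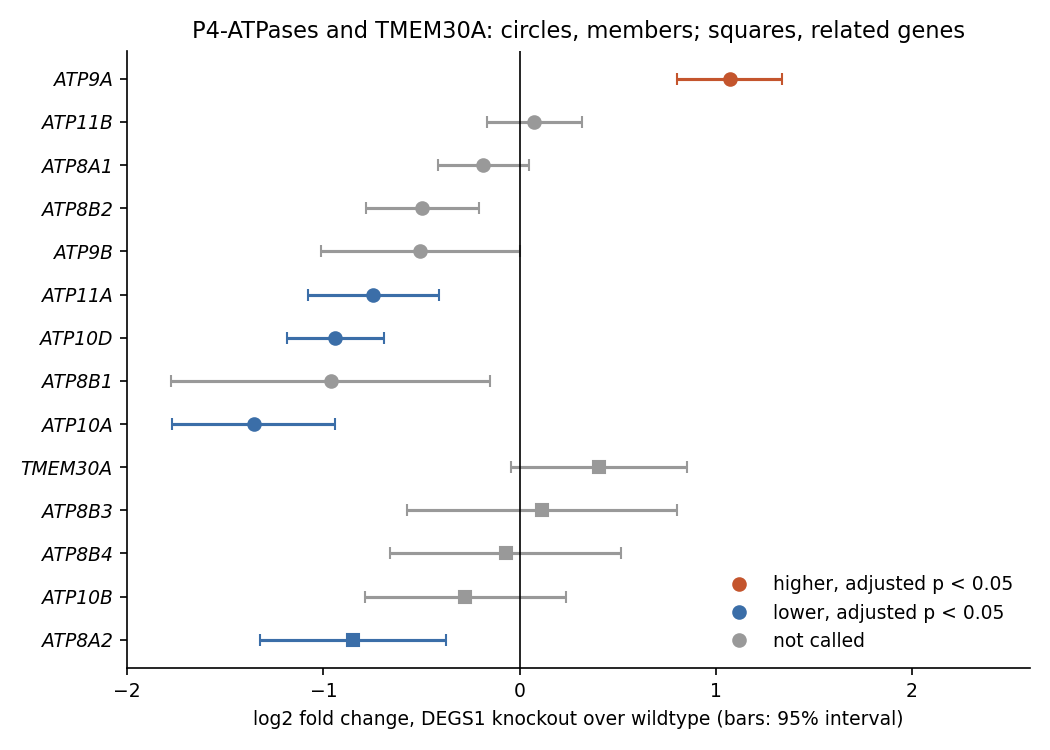
Log2 fold change of the P4-ATPases named in the text and of TMEM30A, knockout over wildtype, with its 95% interval. Circles are the 9 members and squares the related genes. ATP9A lies at 1.07, ATP10A, ATP10D and ATP11A at -1.36, -0.94 and -0.74, and the grey symbols did not pass the test.

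**Figure D3:**
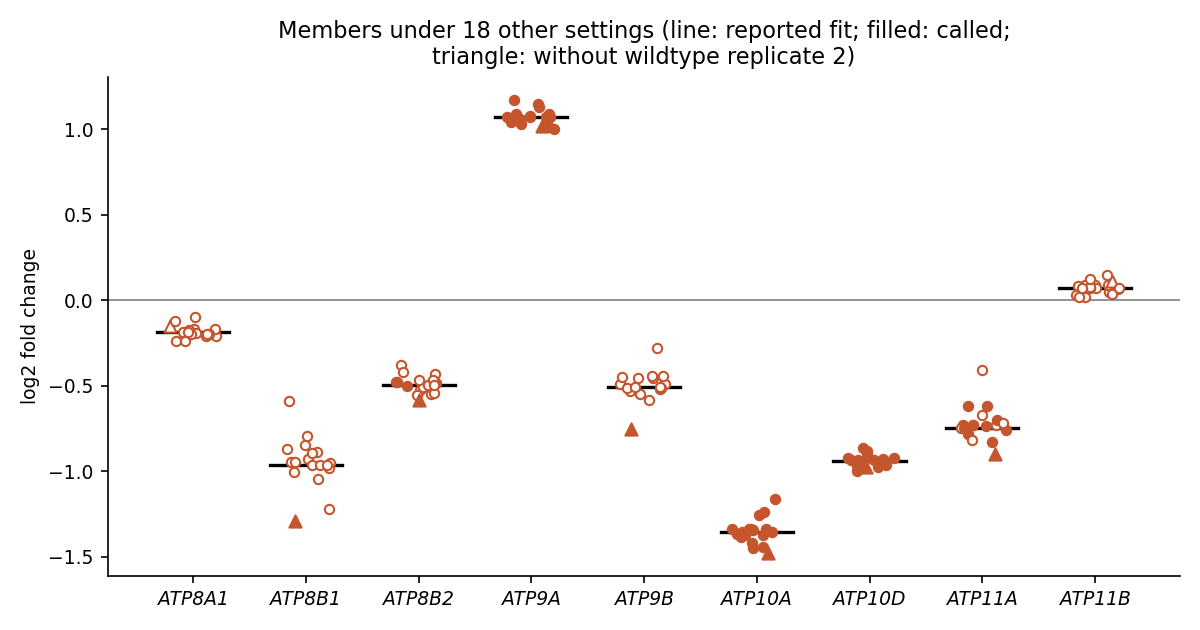
Log2 fold change of each member under 18 other settings, with the reported value as a line, filled symbols where the gene was called, and a triangle for the fit without wildtype replicate 2. ATP9A, ATP10A and ATP10D are filled throughout, and the triangles of ATP8B1 and ATP9B are their only filled symbols.

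Levels were set side by side between genes as CPM per kilobase of the longest annotated transcript. In wildtype the order from high to low was ATP9B (39.7 ± 13.6), ATP10D (22.5 ± 2.04), ATP11B (14.6 ± 0.834), ATP8B2 (12.4 ± 1.43), ATP9A (11.6 ± 0.923), ATP8A1 (9.06 ± 0.339), ATP11A (6.23 ± 1.29), ATP10A (4.86 ± 0.833) and ATP8B1 (0.808 ± 0.390), as means with SD over 3 libraries. The libraries of ATP9B and ATP10D, of ATP8B2 and ATP9A, and of ATP11A and ATP10A overlapped, so these neighbours in the order were not separated. In the knockout ATP9A stood in place 2 at 24.4 ± 2.27, overlapping with ATP9B at 27.9 ± 1.87, and ATP10D stood in place 4 at 11.8 ± 0.449, below ATP11B at 15.4 ± 1.21.

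Per length, ATP9A made up 9.62% ± 0.967 of the summed level of the 9 genes in wildtype and 23.8% ± 1.52 in the knockout, while ATP10D made up 18.7% ± 2.51 and 11.5% ± 0.780 (SD, n = 3 each). These shares depend on the length used and are not independent of each other, since they add up within a library. The sum of ATP10A and ATP10D was 29.8, 25.3 and 27.1 CPM per kilobase in wildtype and 13.5, 13.2 and 14.3 in the knockout. The sum of ATP9A and ATP9B was 55.6, 35.3 and 62.8 in wildtype (51.3 ± 14.2) and 55.8, 53.5 and 47.8 in the knockout (52.3 ± 4.14). The genotypes overlapped, with wildtype replicate 2 lowest. This sum depends on the length used, since the longest transcript of ATP9B has 4361 nt and the union of its annotated exons 14934 nt. The sum over all 9 was 130, 101 and 134 CPM per kilobase in wildtype and 104, 104 and 98.7 in the knockout, so the genotypes overlapped through wildtype replicate 2. The place of ATP9B depends on the length used: with the union of all annotated exons, its place among the 9 was 3 in wildtype and 4 in the knockout, and ATP9A had place 4 and place 1.

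**Figure D4:**
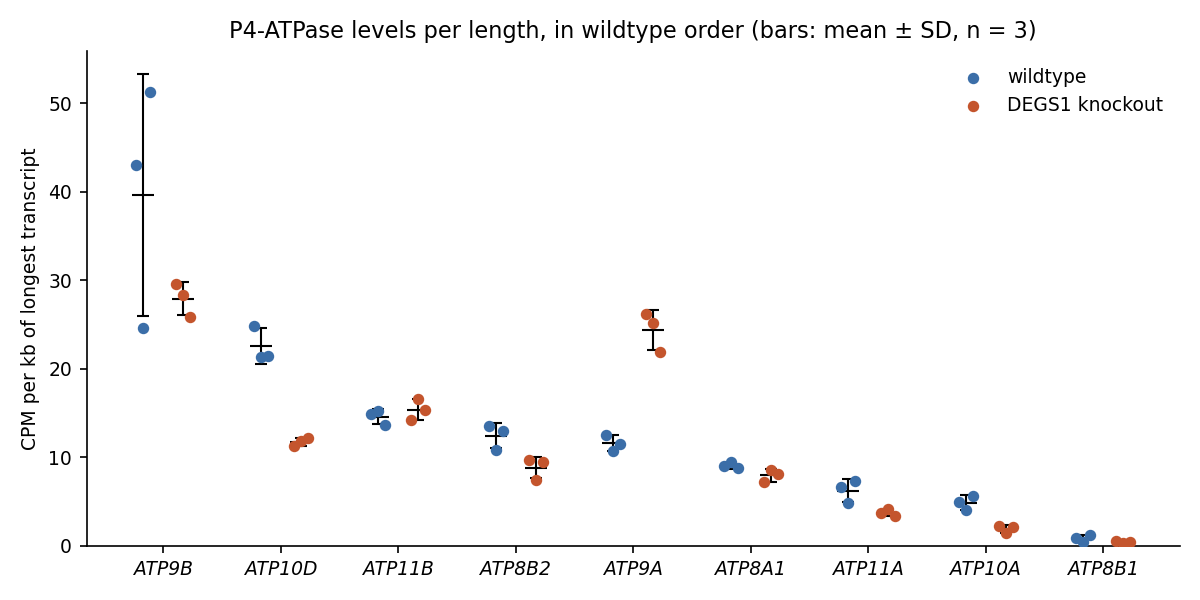
Level per length in CPM per kilobase for the 9 members in wildtype order, with 1 point per library and bars for the mean and SD of 3 libraries. ATP9A is the member whose knockout points stand clear above its wildtype points, at 21.9 to 26.2 against 10.7 to 12.6.

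The chromosomes of the members differed. ATP11A lies on chromosome 13, whose 184 genes with a mean log2 CPM above 3 had a median log2 fold change of -0.31, the lowest among chromosomes 1 to 22 and X, with 96.7% of them negative. The median over all 10461 such genes was 0.03. All 10 tested genes nearest to ATP11A, 5 on each side in RefSeq order, had negative log2 fold changes with a median of -0.50, and ANKRD10 among them was called (-0.60, SE 0.11, adjusted p = 0.00869 by edgeR). Its call was lost without knockout replicate 1 (0.0755), without knockout replicate 3 (0.0823) and with chromosome medians removed (-0.26, adjusted p = 0.225 by edgeR). An unadjusted p under 0.05 was reached by 7 of these 10, and 6 were called without wildtype replicate 2. Over all tested genes these shares were 16.5% and 22.1%. With the median of each chromosome removed in each library, the log2 fold change of ATP11A was -0.41 (adjusted p = 0.241 by edgeR). ATP8A2 lies on the same chromosome, and its value was -0.51 with chromosome medians removed (adjusted p = 0.254 by edgeR).

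The other called members lie on chromosomes without such a shift. ATP9A is on chromosome 20, with a median of 0.09. Of its 10 nearest tested genes, with a median of 0.12, 0 were called by edgeR, by DESeq2 or by limma voom, and 0 had an unadjusted p under 0.05. Without wildtype replicate 2, 2 of these 10 were called, against 22.1% of all tested genes. Removing chromosome medians left ATP9A at 1.00 (adjusted p = 0.000659 by edgeR). ATP10A is on chromosome 15, with a median of 0.01. Of its 10 nearest tested genes 8 had negative values, with a median of -0.39 over the 10. The only one called was GABRA5, a GABA receptor subunit at -5.85 (SE 0.39, adjusted p = 6.68e-06 by edgeR), and 4 of the 10 were called without wildtype replicate 2. The adjoining UBE3A, a ubiquitin ligase, was not called (-0.09, SE 0.12, adjusted p = 0.77 by edgeR). With chromosome medians removed ATP10A stood at -1.34 (adjusted p = 0.00201 by edgeR). ATP10D is on chromosome 4, with a median of 0.04, and 2 of its 10 nearest tested genes were called lower. These were KCTD8 (-2.02, SE 0.45, adjusted p = 0.0251 by edgeR) and NIPAL1 (-0.58, SE 0.14, adjusted p = 0.0394 by edgeR), whose calls were lost in 5 and 7 of 18 other settings. The median of the 10 was -0.32, and 3 were called without wildtype replicate 2. With chromosome medians removed ATP10D stood at -0.95 (adjusted p = 0.00047 by edgeR). ATP8A1 lies near ATP10D on chromosome 4 and shares KCTD8 as a near gene. Next to ATP8B1, NEDD4L, a ubiquitin ligase, fell (-0.80, SE 0.11, adjusted p = 0.00136 by edgeR).

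**Figure D5:**
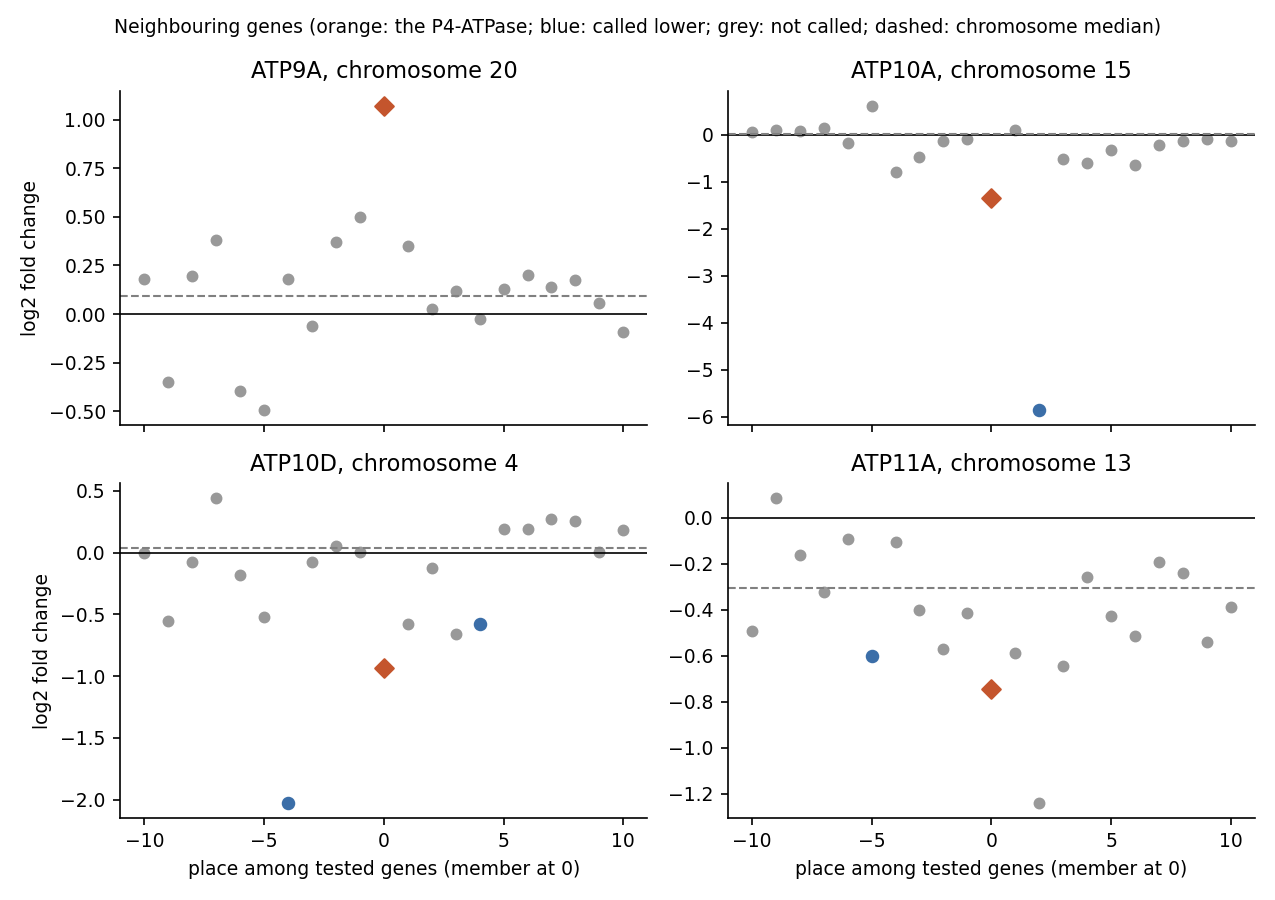
Log2 fold change of the 10 tested genes on each side of ATP9A, ATP10A, ATP10D and ATP11A against their place in RefSeq order, with the P4-ATPase at place 0 and the chromosome median as a dashed line. Around ATP11A 19 of 20 neighbours are below 0, and around ATP9A 6 of 20 are.

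The promoters of the called flippases are shown because the counts of these genes changed; the counts are per gene and do not tell which start was used. RefSeq (GRCh38.p14) gave a promoter of 300 bases, 250 before and 50 after the start, for 7 of the 9 members, which leaves out ATP8B1 and ATP11B. CpG dinucleotides, the sites of DNA methylation, are in capitals. ATP9A on the minus strand of chr20:51768341-51768640, ATP10A on the minus strand of chr15:25863278-25863577, ATP10D on the plus strand of chr4:47485025-47485324 and ATP11A on the plus strand of chr13:112689788-112690087 read as follows.
ATP9A: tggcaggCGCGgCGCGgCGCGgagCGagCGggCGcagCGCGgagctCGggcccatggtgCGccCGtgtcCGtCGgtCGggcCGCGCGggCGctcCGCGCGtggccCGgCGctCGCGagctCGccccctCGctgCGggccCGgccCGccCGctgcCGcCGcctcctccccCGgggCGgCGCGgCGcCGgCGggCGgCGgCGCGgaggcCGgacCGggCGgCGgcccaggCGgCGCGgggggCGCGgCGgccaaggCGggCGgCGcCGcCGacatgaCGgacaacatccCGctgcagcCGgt
ATP10A: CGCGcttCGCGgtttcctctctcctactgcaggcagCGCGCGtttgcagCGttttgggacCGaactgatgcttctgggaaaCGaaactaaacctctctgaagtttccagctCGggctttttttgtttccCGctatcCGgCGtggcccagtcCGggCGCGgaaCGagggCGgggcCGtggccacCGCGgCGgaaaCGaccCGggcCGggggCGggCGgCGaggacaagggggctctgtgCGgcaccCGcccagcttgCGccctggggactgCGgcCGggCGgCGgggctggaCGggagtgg
ATP10D: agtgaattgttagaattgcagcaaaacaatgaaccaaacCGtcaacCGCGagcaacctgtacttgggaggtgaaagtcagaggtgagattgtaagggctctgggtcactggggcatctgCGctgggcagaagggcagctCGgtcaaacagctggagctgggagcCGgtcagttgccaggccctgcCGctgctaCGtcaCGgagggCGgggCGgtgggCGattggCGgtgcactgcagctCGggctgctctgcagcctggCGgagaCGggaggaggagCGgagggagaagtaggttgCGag
ATP11A: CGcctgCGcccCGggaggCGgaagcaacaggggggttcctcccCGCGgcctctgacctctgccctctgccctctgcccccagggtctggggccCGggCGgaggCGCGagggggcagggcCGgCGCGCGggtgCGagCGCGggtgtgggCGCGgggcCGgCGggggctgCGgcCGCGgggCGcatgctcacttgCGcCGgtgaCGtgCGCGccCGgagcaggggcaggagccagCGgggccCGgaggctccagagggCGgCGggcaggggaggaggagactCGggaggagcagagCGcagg
The ATP9A promoter held 65 CpG dinucleotides, ATP10A and ATP11A 37 each and ATP10D 18, against a median of 25 in the promoters of 11348 tested genes. The GC box GGGCGG, read on both strands, was in 6 of the 7 member promoters and in 67.4% of those of tested genes. CCAAT was in 1 of the 7, that of ATP10D, against 36.5%, TATAAA in 0 against 6.2%, and the E-box CACGTG in 0 against 9.7%. The ATP9A promoter, of the gene that rose, had 5 GC boxes and that of ATP10A, which fell, also had 5. Among the uncalled members ATP8A1 had 36 CpG dinucleotides, ATP9B 37 and ATP8B2 2.

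With all libraries few genes around the flippases were called, and of all tested genes 4.46% were. A gene that was not called may still have changed, since 29.1% of simulated 1.5-fold changes were recovered. TMEM30A, the subunit most flippases need, stood at 92.4, 150 and 87.3 CPM in wildtype and at 130, 172 and 135 CPM in the knockout. Within the knockout every library was above wildtype replicates 1 and 3, and wildtype replicate 2 was above knockout replicates 1 and 3. The log2 fold change was 0.40 (SE 0.20, adjusted p = 0.356 by edgeR), 0.70 without wildtype replicate 2 (adjusted p = 0.00227 by edgeR) and 0.26 without wildtype replicate 3 (adjusted p = 0.77 by edgeR). With a block on replicate number it was called higher (0.44, adjusted p = 0.0412 by edgeR). The alternative subunit gene TMEM30B had 0 to 5 counts per library and was not tested. Of 8 genes of the SNX3, MON2, DOP1 and retromer machinery that works with ATP9A, 0 were called by edgeR, by DESeq2 or by limma voom, and 0 had an unadjusted p under 0.05. The smallest p was that of SNX3 (log2 fold change 0.24, SE 0.13, adjusted p = 0.406 by edgeR, and 0.0152 without wildtype replicate 2). Their median log2 fold change was 0.05. When wildtype replicate 2 was left out, 2 of the 8 were called higher, against 10.6% of all tested genes.

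Scramblases let lipids cross the bilayer in both directions and so undo what flippases build. Of 14 tested scramblase genes and subunits 0 were called by edgeR, DESeq2 or limma voom, 3 had an unadjusted p under 0.05, and the median was -0.01. Leaving out wildtype replicate 2 gave 1 call higher and 1 lower, against 10.6% and 11.5% of all tested genes. PLSCR1 had the smallest p (-0.37, SE 0.14, adjusted p = 0.198 by edgeR). ANO6, the calcium-activated scramblase of the plasma membrane, stood at 94.8 ± 11.1 CPM in wildtype and 106 ± 4.94 CPM in the knockout (SD, n = 3 each; adjusted p = 0.52 by edgeR). XKR8, the scramblase that caspases activate, stood at 7.48 ± 0.698 and 9.59 ± 0.681 CPM (adjusted p = 0.314 by edgeR).

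ABC transporters move lipids and drugs outward. All 6 tested had negative log2 fold changes, with a median of -0.38. Over all 16954 tested genes, 8937 were negative. ABCG1 (-0.07, SE 0.40) and ABCA1 (-0.10, SE 0.15) changed by less than their SE. Of the 6, 1 was called lower, against 2.95% of all tested genes. This was ABCB1, the multidrug transporter that also moves glucosylceramide analogues. ABCB1 fell from 17.3 ± 1.91 to 3.83 ± 1.35 CPM (SD, n = 3 each), with a log2 fold change of -2.17 (SE 0.23, adjusted p = 0.000201 by edgeR). Without wildtype replicate 2, 3 of the 6 were called lower, against 11.5% of all tested genes.

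Of 7 tested genes of glucosylceramide synthesis, transfer and breakdown 0 were called by edgeR, 1 by DESeq2 and 0 by limma voom, with 2 at an unadjusted p under 0.05 and a median of 0.00. In the fit without wildtype replicate 2, 3 of the 7 were called higher, against 10.6% of all tested genes. The fit with a block on replicate number called 1 of the 7 higher, and 390 of all 16954 tested genes higher. UGCG, the synthase that makes glucosylceramide from ceramide, stood at 56.6 ± 10.3 and 50.3 ± 4.21 CPM (SD, n = 3 each; log2 fold change -0.17, SE 0.14, adjusted p = 0.572 by edgeR). PLEKHA8, which carries glucosylceramide between membranes, had the smallest p (0.38, SE 0.10, adjusted p = 0.0668 by edgeR) and was called in 6 of 18 other settings, such as the DESeq2 Wald test (DESeq2 adjusted p = 0.0339). Of 14 genes that make the phospholipids flippases carry, 0 were called by edgeR, DESeq2 or limma voom, 1 had an unadjusted p under 0.05 and the median was 0.01. That was CHKA, a choline kinase (0.29, SE 0.11, adjusted p = 0.206 by edgeR), the only one of the 14 called without wildtype replicate 2 (0.31, adjusted p = 0.0491 by edgeR). That fit called 22.1% of all tested genes.

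Most other P-type ATPases pump ions. Of 18 tested, 0 were called by edgeR, 1 by DESeq2 and 0 by limma voom, and 4 had an unadjusted p under 0.05. Their median log2 fold change was -0.14, with 14 negative and 4 positive, against -0.50 in the 9 flippases. The calcium pump ATP2B4 had the smallest p (-0.44, SE 0.12, adjusted p = 0.0591 by edgeR). Without wildtype replicate 2, 5 of the 18 were called lower, against 11.5% of all tested genes. The fit with a block on replicate number called 2 of the 18 lower, and 692 of all 16954 tested genes lower.

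Among 10460 other genes with a mean log2 CPM above 3, those whose log2 CPM followed a called member most closely over the 6 libraries were named by Pearson's r. They share library and depth with it, and the r is a description. For ATP9A they were NICN1 (r = 0.994), NPLOC4 (0.993) and SLCO5A1 (0.992), for ATP10A CDHR1 (0.999), OSMR (0.998) and ZNF850 (0.998), for ATP10D ZNF566 (0.995), LINC00371 (0.992) and RCC2 (0.991), and for ATP11A MLLT6 (0.999), VWA8 (0.999) and DDHD1 (0.997). Of these 12 genes SLCO5A1 rose (0.85, SE 0.10), and CDHR1 (-0.67, SE 0.15), OSMR (-1.40, SE 0.19), LINC00371 (-1.14, SE 0.13) and VWA8 (-0.57, SE 0.14) fell in edgeR's test. All 12 were picked by r with a called member over the same 6 libraries, so these calls are not separate evidence.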

How the data were processed

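The authors deposited raw counts, 1 whole number per gene symbol and library, with no normalization. Per the labels' protocols, libraries were made from 1 ug of total RNA with a stranded kit and read from 1 end for 75 nt. The submitters' processing notes name bcl2fastq 2.20 and the build hg19. The sources used here name no aligner, counter, annotation or strand setting, so reads shared with overlapping or antisense genes could have been counted either way.

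Genes were tested with edgeR 4.0.16 (R 4.3.3): edgeR's expression filter, scaling by the trimmed mean of M values, and a robust quasi-likelihood F test on genotype alone. The SE was obtained by dividing the size of the log2 fold change by the square root of F. Lists were described by counts and medians, with no set test. Named genes were the 9 members, called genes of each pathway list (at most 4) or that with the smallest p, called genes among the 5 tested neighbours on each side, and the 3 genes most like each called member. Other list genes named were chosen after their values were seen. The members and lists were chosen with earlier results of these data known. Of 117 listed genes 115 were matched and the rest were not analysed here; some genes are not reported here. RefSeq GRCh38.p14 gave chromosomes and gene order only, for 93.5% of tested genes, beside the promoters. GENCODE 29 gave transcript lengths and GC content, for 94.1%.

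On simulated counts drawn from the real means and library sizes for this comparison, with 16700 genes tested, 29.1% of 55 genes changed 1.5-fold were recovered, 74.0% of 73 changed 2-fold and 94.1% of 68 changed 4-fold, with 6 false calls. The alternatives were scaling by library size alone, by upper quartiles or by DESeq2 1.42.0 size factors, the Wald test of DESeq2, limma voom (limma 3.58.1), testing without a filter or with at least 1 CPM required in 3 libraries, a block on replicate number, each library left out, a threshold of 0.01, chromosome medians removed, a spline trend on length and GC removed, and the 10 most abundant genes left out. Every pair of libraries differed by more than sampling noise. Intervals and floors for single libraries cover counting error only.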

Additional observations from a re-analysis of the deposited data

How the results depend on the processing

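The number of changed genes was 756 with all libraries, 375 at a threshold of 0.01 and 380 to 3825 when 1 library was left out: 3825 without wildtype replicate 2, 441 without replicate 1 of the same genotype, and 424 or 380 when knockout replicate 1 or 3 was dropped. The cause was not tested. The number of called members was 4 and ranged from 3 to 7 when 1 library was left out, with 7 without wildtype replicate 2 and 3 without knockout replicate 1 or 3. Every member kept the sign of its log2 fold change under all 18 alternatives. Of the related genes, ATP8B3 turned to -0.10 without wildtype replicate 2 and ranged from -0.13 to 0.37 when 1 library was left out, and ATP8B4 from -0.17 to 0.040, both changing sign without knockout replicate 3. The replicate numbers were not taken to pair the samples, since the labels do not say what the code shared by same-numbered libraries marks and not every pair deviated together: the deviations of same-numbered libraries from their group means correlated at 0.215, 0.309 and -0.125, and not every library correlated best with its own number. With the replicate block 1082 genes and 4 members were called, ATP11A not passing (edgeR adjusted p = 0.0523) and ATP8B2 (0.0083) and TMEM30A (0.0412) passing. Counts of 51 to 136 per library limit the precision of ATP8B1.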

Other observations

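Pseudogenes of the family had low counts. ATP8A2P2, a pseudogene of ATP8A2 on chromosome 13, stood at 1.38 ± 0.729 CPM in wildtype and 0.498 ± 0.199 CPM in the knockout (SD, n = 3 each) and was not called (log2 fold change -1.44, SE 0.49, edgeR adjusted p = 0.15). ATP8A2P1, ATP8A2P3 and ATP8B5P had 0 to 13 counts per library and were not tested. Reads of such copies could be split with their parent genes by the counting, so the values of ATP8A2 carry that uncertainty.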
